A study of Mus musculus with 16 samples.

Results

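The genes described here are 48 transcription factor and coactivator genes of the liver, out of 7413 genes that could be named on the arrays. They were chosen by a pattern of gene symbols, with Prox1 added by name. The pattern takes in numbered nuclear receptors, Ppar, Rar, Rxr and Ror receptors, Hnf factors, numbered Fox genes, and Cebp, Onecut and Klf genes. Where a gene had several probes, the probe of highest mean was used, and 60 probes stood for the 48 genes. The symbol pattern also takes in Ppargc1b, a coactivator, which is kept as a class of its own. A further 68 genes of the pattern, among them Hnf4a, Foxa1, Foxa2, Foxa3, Ppara, Pparg, Nr1h4, Nr1i2, Nr1i3 and Nr1d1, had no probe named here and are not analysed here.

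The livers came from male mice aged 23 weeks, 7 carrying a Lactb transgene and 9 FVB wildtype. All of them ate chow with 4% fat up to 11 weeks of age and 6% fat from then until they were killed. Lactb encodes a serine beta-lactamase-like protein of mitochondria, and the labels do not say which promoter drives the transgene or how many lines were used. No probe was named Lactb, so the genotype labels were not checked against the transgene. Each array is 1 animal, and the p-values measure the spread between these animals.

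Nuclear receptors are transcription factors that bind DNA as monomers, homodimers or heterodimers with a retinoid X receptor, and many of them switch between corepressors and coactivators when a small lipophilic ligand is bound. In liver they set bile acid, lipid, drug and glucose metabolism, while the C/EBP, Onecut, HNF and Prox1 factors establish and keep the hepatocyte programme. The forkhead and Krüppel-like families are wider, with members active in hepatocytes and others in endothelium, macrophages or outside the liver.

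Every array gave 24048 intensities whose mean was 331.4 to 333.5, and 9907 to 11564 probes per array stood above its noise limit of 17.1 to 32.5 intensity units. A probe was tested when it passed that limit on at least 6 of the 16 arrays, which left 11317 probes, and levels are given below on a log2 scale after background correction and quantile normalization. The livers differed from each other mainly along 1 axis, the first principal component of 11288 tested probes that name no member, which held 57.2% of the variance. At its low end lay 6 animals (coordinates from -31.1 to -25.8), transgenic 1 and 2 and wildtype 1, 2, 8 and 9. At its high end lay 8 animals (16.6 to 25.6), 5 transgenic and 3 wildtype, and wildtype 3 and 7 lay between. Because the animals formed clusters on this axis, no correlation over all of them is given, and a gene's course along it is described as a slope in log2 units per SD of the coordinate, with no test. Markers of macrophages and Kupffer cells went with the axis: 7 of 13 were tested, all 7 had a slope above 0 (median 0.94), and their summed intensity was 1004 to 1688 at the low end and 6625 to 11867 at the high end. Of these, Cd68, whose slope is the median, Gpnmb and Mmp12 were above noise on 10 of 16 arrays. The others, above noise on all 16, had slopes of 0.23 for Csf1r, 0.44 for C1qb, 0.49 for C1qa and 1.52 for Lyz2. All marker probes tested here were among those from which the axis was computed. By genotype the macrophage sum was 1004 to 11867 in transgenic and 1080 to 9035 in wildtype livers. All 7 markers had a higher transgenic mean (median difference 0.49), as had 48.7% of all tested probes. Of the bile duct markers 3 of 9 were tested, with slopes of 1.63 for Prom1, 0.88 for Spp1 and 0.05 for Cldn4. Prom1 was above noise on 10 of 16 arrays, and 1 of the 3 slopes was below 0 with 75th percentile scaling. Their summed intensity, which includes Krt19, named but not tested, was 225.3 to 468.9 at the low end and 1025 to 3490 at the high end. The 5 hepatocyte markers tested all had a slope below 0 (median -0.14, or -0.22 without quantile normalization), as had 54.9% of all tested probes. Their sum was 60826 to 89591 in transgenic and 53508 to 86124 in wildtype livers. It was 78954 to 89591 at the low end and 53508 to 72495 at the high end, far above noise on every array. The marker sums were taken over deposited intensities, before quantile normalization, while the slopes are of normalized levels. Fewer cells of a type and less RNA per cell cannot be told apart in whole liver.

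The promoters of 4 members are shown because the results below turn on them: Prox1 had the smallest genotype p of all members, Klf6 the largest slope along the axis, and Cebpa and Nr1d2 are among the 4 members with the steepest slopes in the other direction. Each is the RefSeq window of assembly GRCm38.p6 from 250 bases before to 50 bases after a listed transcription start, read 5′ to 3′ on the gene's own strand. Capitals mark every match, on either strand, to the motifs searched. They are the GC box, spelled GGGCGG, and the CCAAT box, spelled by its name. The E-box was spelled CACGTG, which reads the same on both strands, and the half-site of nuclear receptors was spelled AGGTCA. The TATA box was searched as TATAAA. No motif contains another. Prox1 is at chr1:190170778-190171077 on the minus strand, Klf6 at chr13:5861239-5861538 on the plus strand, Cebpa at chr7:35119043-35119342 on the plus strand and Nr1d2 at chr14:18239057-18239356 on the minus strand.
Prox1: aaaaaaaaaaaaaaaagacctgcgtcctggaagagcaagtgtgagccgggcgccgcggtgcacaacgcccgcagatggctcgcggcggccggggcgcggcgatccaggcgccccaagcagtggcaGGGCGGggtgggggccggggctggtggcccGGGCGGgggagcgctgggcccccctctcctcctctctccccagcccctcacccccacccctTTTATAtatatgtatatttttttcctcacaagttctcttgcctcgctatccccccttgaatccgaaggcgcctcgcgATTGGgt
Klf6: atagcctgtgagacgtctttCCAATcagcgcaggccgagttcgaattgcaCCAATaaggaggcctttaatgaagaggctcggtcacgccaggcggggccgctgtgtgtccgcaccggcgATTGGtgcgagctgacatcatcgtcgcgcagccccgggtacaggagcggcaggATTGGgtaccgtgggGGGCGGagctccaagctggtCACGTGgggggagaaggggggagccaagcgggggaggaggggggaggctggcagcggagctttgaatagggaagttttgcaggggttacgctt
Cebpa: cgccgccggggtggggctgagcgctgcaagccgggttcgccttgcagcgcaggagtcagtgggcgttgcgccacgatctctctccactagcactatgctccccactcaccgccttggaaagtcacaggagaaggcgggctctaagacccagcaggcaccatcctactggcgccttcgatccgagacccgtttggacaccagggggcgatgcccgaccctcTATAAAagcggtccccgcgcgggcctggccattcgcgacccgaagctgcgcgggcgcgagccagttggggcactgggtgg
Nr1d2: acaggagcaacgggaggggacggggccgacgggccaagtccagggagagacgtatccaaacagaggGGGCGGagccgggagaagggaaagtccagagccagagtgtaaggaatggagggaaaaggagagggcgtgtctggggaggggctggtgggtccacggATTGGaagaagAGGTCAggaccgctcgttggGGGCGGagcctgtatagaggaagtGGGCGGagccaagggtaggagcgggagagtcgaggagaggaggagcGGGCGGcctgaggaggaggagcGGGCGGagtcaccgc

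RefSeq lists a second start of Prox1, whose window at chr1:190169466-190169765 held 1 GC box and no other motif searched and is not shown. The window of Prox1 that is shown, the upstream one, held 2 GC boxes, 1 CCAAT box and 1 TATA box. That of Klf6 held 4 CCAAT boxes, 1 GC box and the E-box, which only 2 of the 31 windows of tested members held, the other being that of Onecut1. In the Cebpa window a TATA box was the only match. The Nr1d2 window held 5 GC boxes, 1 CCAAT box and 1 half-site, a motif that the windows of Foxk2 and Rxra also held. In all, 23 of the 28 tested members had a window that was searched, and Foxb1, Klf5, Onecut2 and Ppargc1b are among those without. Any members' windows on 1 chromosome were left out of the search, while the shares over all windows include that chromosome. Among the 31 members' windows searched a GC box was found in 22, a CCAAT box in 9, a TATA box in 5, the half-site in 3 and the E-box in 2. Over all 32851 windows of the table, the shares were 35.7% for the GC box, 37.4% for the CCAAT box, 13.6% for the TATA box, 16.3% for the half-site and 7.15% for the E-box. The median GC content was 63.7% in the members' windows and 52.7% in all. A match is a run of letters, and binding was not measured.

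Of the 48 genes, 28 were tested and 20 were not. Of the 28, 22 were above noise on all 16 arrays, and Onecut1 (15 arrays), Foxk2 (13), Nr4a2 (12), Klf8 (10), Rorb (10) and Klf5 (7) on part of them. The probes of 17 genes were not above noise on any array, among them Foxk1, Foxm1, Foxo6, Foxp2, Foxp3, Klf4, Klf11, Klf17, Nr1h5, Nr2c2, Nr2f2, Nr3c1, Nr4a1, Nr4a3, Onecut3 and Ppard. Foxd3, Foxl1 and Rara passed the limit on 1 array each. Among these is Nr3c1, the glucocorticoid receptor, whose probe read -12.5 to 18.1 intensity units over the 16 animals, and Foxp3, the factor of regulatory T cells, which read -26.1 to 2.0. For such probes the arrays give only an upper bound, and no genotype difference is given. The probe's place in the transcript was not examined.

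No member differed between genotypes after adjustment. In limma, 0 of the 28 tested members had an adjusted p under 0.05, as had 0% of all 11317 tested probes, and the members' adjusted p-values lay between 0.932 and 0.995. At an unadjusted p under 0.05 there was 1 member of 28, Prox1, against 2.93% of all tested probes, a share of 3.57% among the members. Prox1 was added to the symbol pattern by name, and the members were chosen with earlier results of these data known. The next smallest unadjusted limma p of a member was 0.0599. The levels of the genotypes overlapped for all 28 members, and over all tested probes they were apart in 0.00884%. The transgenic mean was the higher one for 7 of 28 members, against 48.7% of all tested probes, and under the alternative settings the count was 4 of 22 to 12 of 28 for tested members. The median difference between genotypes was -0.07 log2 units over the members and -0.0041 over all tested probes. The 95% interval of the difference lay within 1.5-fold in either direction for 24 of the 28 members, against 90.5% of all tested probes, and within 2-fold for 27. The exception at 2-fold is Klf6, whose mean fold between genotypes was 1.31.

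**Figure D1:**
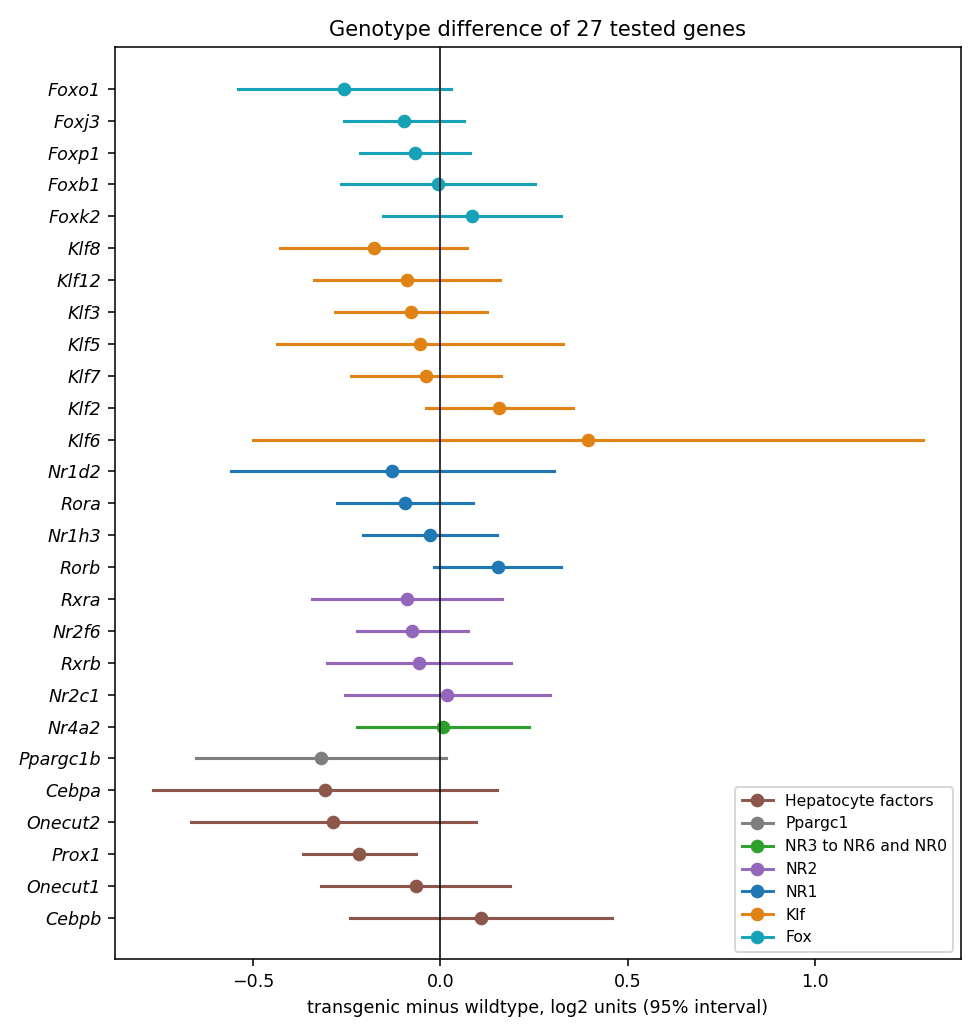
Difference between transgenic and wildtype means (log2 units) for 27 of the 28 tested members, ordered by class, with its 95% interval. Prox1 has the only interval that does not reach 0, at an adjusted limma p of 0.932, and Klf6 has the widest interval.

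Prox1, a homeodomain factor of hepatocyte and lymphatic identity that also acts as a corepressor of liver nuclear receptors, was at 8.22 to 8.56 log2 units in transgenic livers, with a median of 8.39. In wildtype livers it was at 8.45 to 8.85, with a median of 8.61. Transgenic livers were lower on average and all 7 lay below the wildtype mean, while the ranges overlapped between 8.45 and 8.56. The means were 8.41 ± 0.12 (SD, n = 7) and 8.63 ± 0.13 (SD, n = 9). The difference was -0.22 log2 units, with an SE of 0.072 and a 95% interval from -0.37 to -0.06. Its unadjusted limma p was 0.00793 and its adjusted p 0.932. A number in the animals' titles, whose meaning the labels do not give, occurs in both genotypes for 9, 12 and 13. Within these the difference was -0.35, -0.30 and -0.35. Here and below, numbers 9 and 13 held 1 animal of each genotype, and number 12 held 3 transgenic and 1 wildtype. Each of these values thus rests on 1 wildtype animal. Over 28 alternative settings the genotype difference of Prox1 ran from -0.33 to -0.18, with an unadjusted limma p of 0.00448 to 0.0349. The slope of Prox1 along the axis was -0.07, or 0.02 without quantile normalization, and 58.7% of all tested probes had a slope of at least that size.

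The other factors of hepatocyte identity that were tested are Cebpa, Cebpb, Onecut1 and Onecut2, and with Prox1 4 of the 5 had a lower transgenic mean. Cebpa encodes C/EBP alpha, a driver of gluconeogenic and lipogenic genes in mature hepatocytes. It was at 8.12 to 9.06 in transgenic livers (median 8.41) and at 7.85 to 9.76 in wildtype livers (median 8.77). The wildtype range enclosed the transgenic one, and the difference of -0.31 (SE 0.218) had an unadjusted limma p of 0.176. Onecut2, a cut-homeodomain factor of hepatocyte and biliary development, was at 8.25 to 9.34 in transgenic livers (median 8.52) and at 8.41 to 9.34 in wildtype livers (median 8.82). Its difference was -0.29 (SE 0.181, unadjusted limma p 0.132), inside the spread of either genotype. Its relative Onecut1, also called HNF6, stood near the noise limit at 19.9 to 70.1 intensity units, with a difference of -0.07. Cebpb, the C/EBP form of the acute phase and regeneration, was bright, at 2596 to 5847 intensity units, and its difference was 0.11 (SE 0.166).

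**Figure D2:**
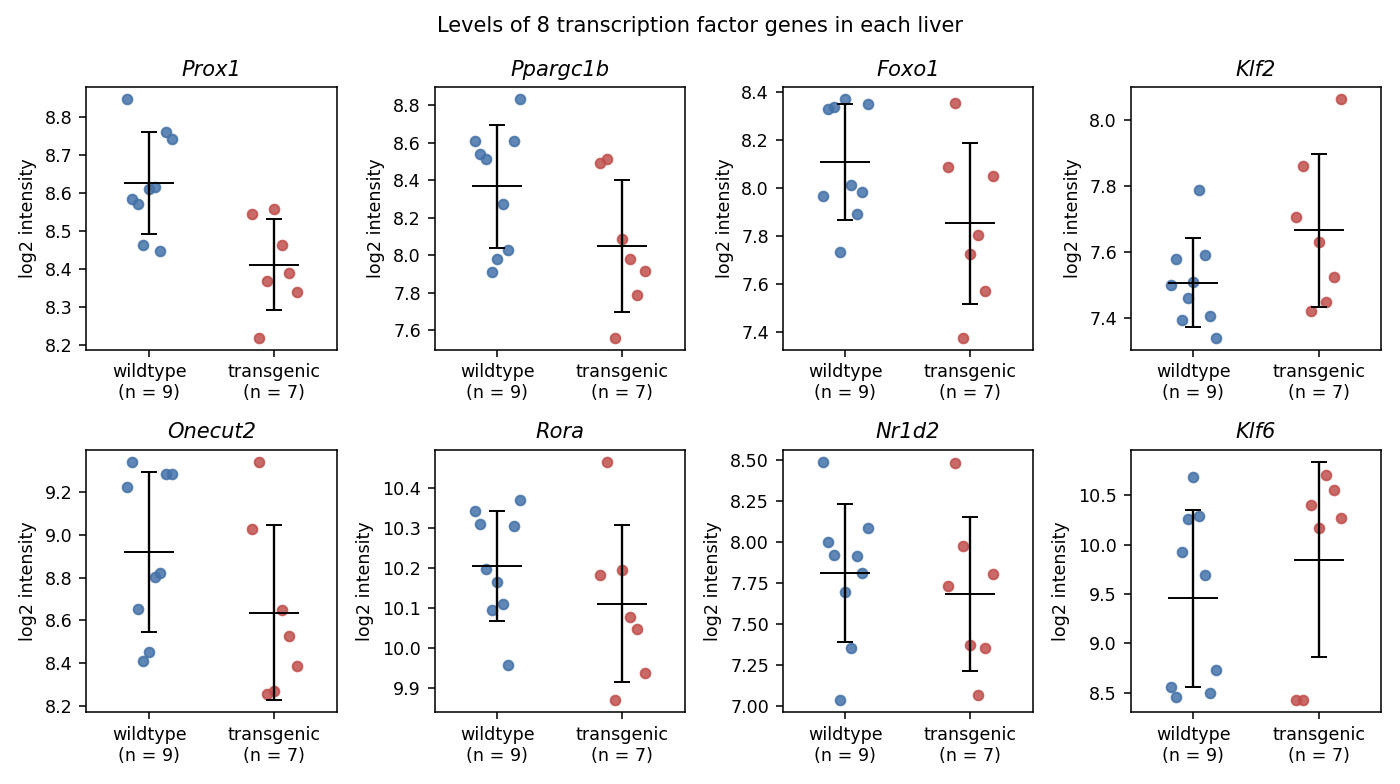
Level of 8 members in each animal (log2 intensity), by genotype, with 1 point per animal and the mean and SD beside the points. The genotypes overlap for every gene shown, and Klf6 splits into a low set of 6 animals and a high set of 10 in which both genotypes occur.

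Of the NR1 class, 5 of 8 genes were tested, and 4 of the 5 had a lower transgenic mean (3 without quantile normalization), with a median difference of -0.04. Rora, an orphan receptor that activates clock and lipid genes at response elements shared with the REV-ERB repressors, was at 9.87 to 10.47 in transgenic livers (median 10.08). In wildtype livers it was at 9.96 to 10.37 (median 10.20). The wildtype range lay within the transgenic one, and the difference was -0.10 (SE 0.086, unadjusted limma p 0.284). Nr1d2, which encodes the repressor REV-ERB beta of the clock, was at 7.07 to 8.48 in transgenic livers (median 7.73) and at 7.04 to 8.49 in wildtype livers (median 7.92). Its span of 1.46 log2 units over the 16 animals was the widest of the class, and the genotypes covered nearly the same span (difference -0.13, SE 0.204). Rorb, a relative known mainly from retina and brain, was above noise on 10 arrays only, at 11.2 to 45.7 intensity units. Its difference of 0.15 (SE 0.080, unadjusted limma p 0.0734) therefore rests on signals next to the limit. Nr1h3, the oxysterol receptor LXR alpha, was steady, at 10.25 to 10.64 in transgenic and 10.27 to 10.80 in wildtype livers, and differed by -0.03 (SE 0.085). Rora and Nr1d2 belong to the circadian clock, and the labels used here do not state at which hour the livers were taken.

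Of the NR2 class, 4 of 6 genes were tested, 3 with a lower transgenic mean and a median difference of -0.07. Rxra and Rxrb encode the retinoid X receptors, the shared partners of the metabolic receptors. Rxra was at 7.85 to 8.65 in transgenic livers and 7.94 to 8.79 in wildtype livers, and differed by -0.09 (SE 0.121). For Rxrb the difference was -0.06, and for Nr2f6, an orphan repressor also called EAR2, -0.07 with an interval from -0.22 to 0.07. Nr2c1, the testicular receptor TR2, differed by 0.02 and lay at 25.9 to 77.9 intensity units. Of the NR3 to NR6 and NR0 classes only Nr4a2, an immediate-early orphan receptor also called NURR1, was tested. It lay between 11.5 and 56.3 intensity units and differed by 0.01 (SE 0.109).

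Ppargc1b encodes PGC-1 beta, a coactivator of nuclear receptors and SREBP that raises mitochondrial and lipogenic genes in liver. It was at 7.56 to 8.52 in transgenic livers (median 7.98) and at 7.91 to 8.83 in wildtype livers (median 8.52). Of the transgenic animals, 5 lay below the wildtype mean, and the highest, transgenic 2, reached the wildtype median. The difference was -0.32 (SE 0.159), the lowest of all members, with an interval from -0.65 to 0.01 and an unadjusted limma p of 0.0599. Within the title numbers 9, 12 and 13 it was 0.00, -0.74 and -1.04, and with that number as a fixed block it was -0.61, at an unadjusted limma p of 0.0054. With the number as a random block within genotypes it was -0.31, at an unadjusted limma p of 0.0849. Along the axis Ppargc1b had a slope of -0.33, close to -0.30 within transgenic and -0.31 within wildtype animals, and with the axis as a covariate the genotype difference was -0.15 (unadjusted limma p 0.0824).

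Among the remaining forkhead genes, 5 of 13 were tested and 4 had a lower transgenic mean, or 3 without quantile normalization. Foxo1, the insulin-restrained activator of gluconeogenic genes, was at 7.38 to 8.35 in transgenic livers (median 7.81) and at 7.73 to 8.37 in wildtype livers (median 8.01). In 6 of 7 transgenic livers it lay below the wildtype mean, and the ranges overlapped over most of their length. The difference was -0.26 (SE 0.135, unadjusted limma p 0.0751). Foxj3 differed by -0.10 (SE 0.076), and its second tested probe by -0.06 (SE 0.109), while the correlation of the 2 probes over the 16 animals was 0.12. Foxp1 was among the steadiest members, at 89.7 to 139.9 intensity units, and differed by -0.07. Foxk2, detected on 13 arrays, differed by 0.09, and Foxb1, known from the developing nervous system, by -0.0049.

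Of the Krüppel-like factors, 7 of 10 were tested, 2 with a higher and 5 with a lower transgenic mean. Klf2, a flow-responsive factor of endothelium, was at 7.42 to 8.06 in transgenic livers (median 7.63) and at 7.34 to 7.79 in wildtype livers (median 7.50). The difference was 0.16 (SE 0.093), with an interval from -0.04 to 0.35 and an unadjusted limma p of 0.107, and it was 0.47, 0.094 and 0.18 within the title numbers 9, 12 and 13. Its slope along the axis was 0.02. Of the sinusoidal endothelial markers 4 of 11 were tested. All 4 had a higher transgenic mean, against 48.7% of all tested probes, with a median difference of 0.09. Their summed intensity was 6060 to 7432 in transgenic and 4736 to 7418 in wildtype livers, and their part in the Klf2 value was not tested. Klf8 differed by -0.18 (SE 0.119) at 12.5 to 60.4 intensity units, near the limit. Klf3, a repressor that was bright at 1293 to 1898 intensity units, differed by -0.08. Klf7 differed by -0.04, Klf12 by -0.09 and Klf5 by -0.05, the last from a probe above noise on 7 arrays.

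Klf6 had the widest spread of all members. It encodes a zinc finger factor of injury response that is expressed in several liver cell types. Its intensity was 256.8 to 336.1 in 6 animals and 796.3 to 1604 in the other 10, with nothing between. The share of all tested probes with such a gap was not computed. The low set is transgenic 1 and 2 and wildtype 1, 2, 8 and 9, the same 6 animals as at the low end of the axis, and both genotypes occur in both sets. By genotype the levels were 8.42 to 10.71 in transgenic livers (median 10.27) and 8.46 to 10.69 in wildtype livers (median 9.69). The difference was 0.39 (SE 0.425), with an interval from -0.50 to 1.29 and an unadjusted limma p of 0.366. With the axis as a covariate it was -0.11. The values within the title numbers 9, 12 and 13 were -1.51, 1.93 and 1.82, so they took both signs.

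**Figure D3:**
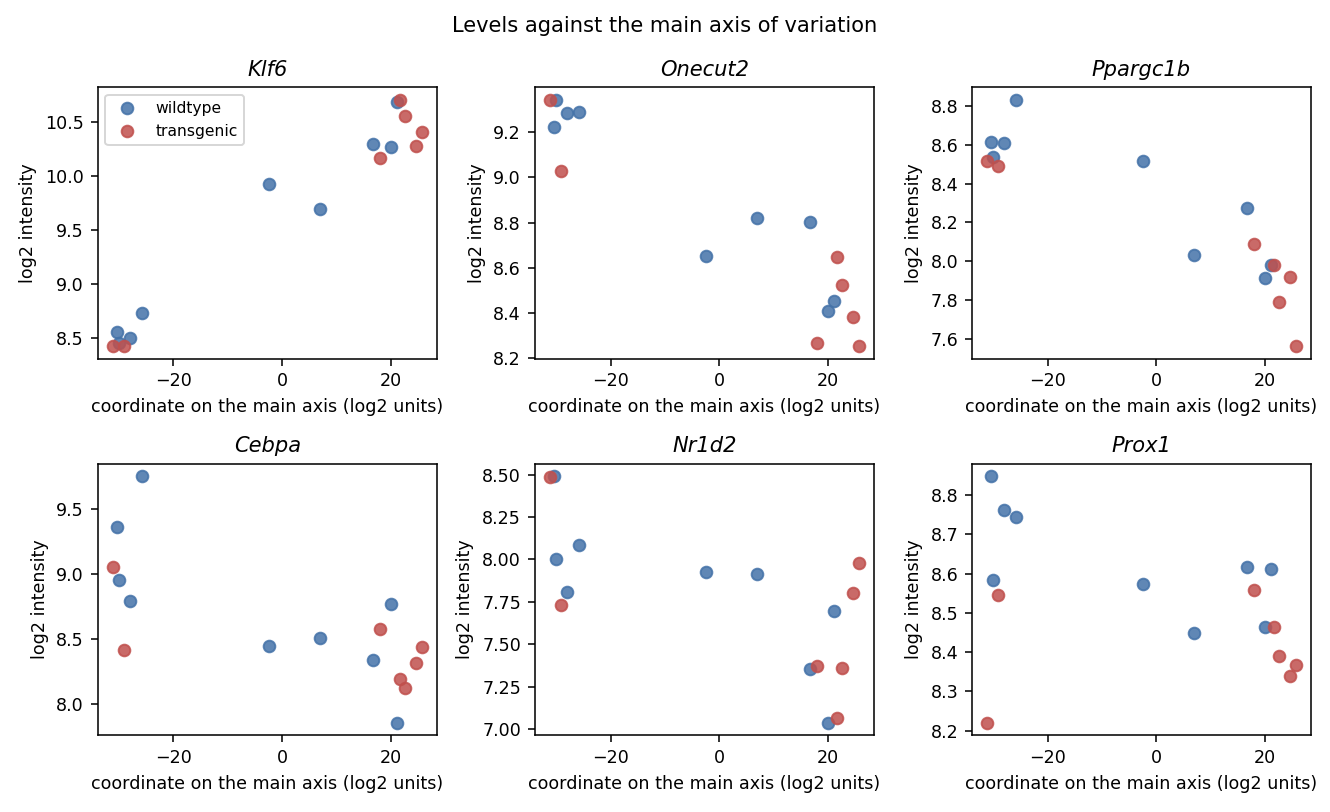
Level of 6 members (log2 intensity) against the coordinate of each animal on the main axis (log2 units), with 1 point per animal coloured by genotype. Klf6 is higher at the high end, while Onecut2, Ppargc1b, Cebpa and Nr1d2 are lower at the high end, and Prox1 has a slope of -0.07 (0.02 without quantile normalization).

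Along the axis, 24 of the 28 tested members had a slope below 0, against 54.9% of all tested probes, and the count was 18 of 28 without quantile normalization (47.8% of all tested probes). The median slope was -0.08 over the members and -0.02 over all tested probes. Slopes of 0.25 or more were found for 2 members, Klf6 and Klf5, against 8.47% of all tested probes, and slopes of -0.25 or less for 4 members, against 5.09%. Klf5 was above noise on 7 arrays, none of them at the low end. It thus passed the probe filter only through animals where it was higher, and its place in the count is no result about it. The counts at both limits depended on the scaling. Slopes of -0.25 or less numbered 7 with a floor in place of normexp, where Klf12, Nr2c1 and Onecut1 joined, and 6 with 75th percentile scaling. Without quantile normalization they numbered 2, Cebpa and Onecut2, and Klf6 alone was at 0.25 or more there, with the offset of 50 and with 75th percentile scaling. The limit of 0.25 was chosen with the values known. Of the genes described, slopes near that limit are 0.29 for Klf5 and -0.29 for Nr1d2 inside it, and -0.18 for Klf12 and 0.03 for Foxk2 outside it. The slope of Klf6 was 0.91, a size that 0.972% of all tested probes reached, and it was 0.92 within transgenic and 0.93 within wildtype animals. Klf5, a factor of epithelial progenitors, was under the noise limit in the 6 animals of the low end (-9.8 to 9.2 intensity units) and at 12.4 to 93.5 in the other 10. No value at that end is thus a measured level. Of the other 10, transgenic 4 (12.4), wildtype 3 (17.2) and wildtype 4 (21.3) were also under the limits of their arrays. The value of 93.5 is wildtype 5 alone, and the next highest was 36.3.

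The 4 members with the lowest slopes ran the other way. Onecut2 was at 9.03 to 9.34 in the 6 low-end animals and at 8.25 to 8.82 in the other 10, with no overlap between these sets (slope -0.38). Its slope was -0.35 within transgenic and -0.37 within wildtype animals. Cebpa was at 8.41 to 9.76 in the low-end animals and at 7.85 to 8.77 in the others, which overlap, and its slope of -0.35 was -0.19 within transgenic and -0.46 within wildtype animals. Ppargc1b was at 8.49 to 8.83 in the low-end animals and at 7.56 to 8.52 in the others. Nr1d2 was at 7.73 to 8.49 against 7.04 to 7.98 (slope -0.29). Rora was at 10.18 to 10.47 against 9.87 to 10.20 (slope -0.14). These sets of animals were read from the axis and are not groups of the study, so the ranges are given with no test. The ranges of Klf6 and Klf5 were also apart between these sets. The share of all tested probes that are apart in this way was not computed, so no weight is put on it for these genes. The macrophage, bile duct and hepatocyte marker sums given above moved with the same coordinate. So did the number of probes above noise, 9907 to 10252 on the arrays of the low end and 10690 to 11564 on those of the high end. The direction of that agreement was set in advance, as the axis was turned so that arrays with more probes above noise lie high. The noise limit was 22.6 to 32.0 intensity units at the low end and 17.1 to 28.2 at the high end. The part of the marker sums and probe counts in these slopes was not tested.

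**Figure D4:**
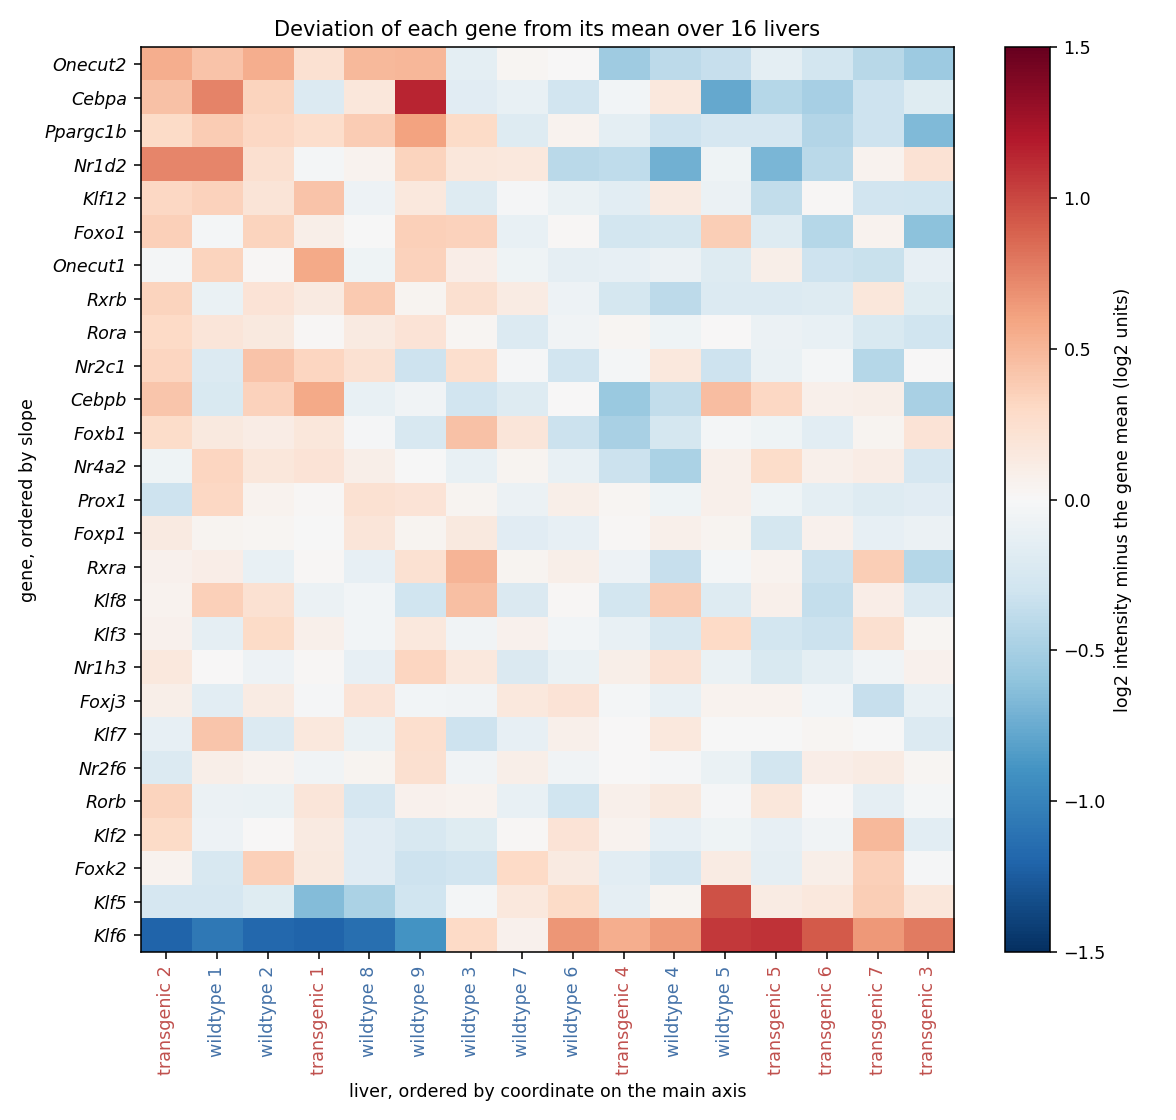
Level of 27 tested members in each animal as the difference from the gene's mean over 16 animals (log2 units, colour), with animals ordered by their coordinate on the main axis and members ordered by slope. Klf6 changes colour between the 6 low-end animals and the other 10, and 24 of 28 members have a slope below 0 (18 of 28 without quantile normalization).

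The partners and target genes of these factors were read from the same fit, in lists drawn up with earlier results of these data known, and 0 of their tested genes had an adjusted limma p under 0.05. For the counts that follow, the share with a higher transgenic mean over all tested probes was 48.7%. Of the nuclear receptors with trivial symbols, Esr1, the oestrogen receptor alpha, differed by 0.12 and Thra, a thyroid hormone receptor, by 0.01, with a higher transgenic mean for both, or for 1 of the 2 with a floor in place of normexp. Of 10 coregulators tested, 8 had a higher and 2 a lower transgenic mean (median 0.07), with Ncoa4 at -0.19 and the arginine methyltransferase gene Prmt1 at 0.17. Of 9 further hepatocyte transcription factors, 5 were higher and 4 lower, with Nfix at -0.22 and Usf1 at 0.13. Of 3 clock genes, 2 were higher (3 without quantile normalization), among them the casein kinases Csnk1d at 0.11 and Csnk1e at 0.15. None of these named partners had an unadjusted limma p under 0.05.

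Of the genes listed as PPAR alpha targets, 11 were tested and 10 had a lower transgenic mean (10 or 11 under each scaling tried), with a median difference of -0.11 log2 units. The 1 with a higher mean compares with 48.7% of all tested probes. The fatty acid hydroxylase gene Cyp4a10 differed by -0.41 (SE 0.183), with an unadjusted limma p of 0.0362 and an adjusted p of 0.932. The peroxisomal thiolase gene Acaa1a differed by -0.11 (SE 0.058). Slopes along the axis were below 0 for 10 of these 11 genes, against 54.9% of all tested probes, and Cyp4a10 was the exception, at 0.01. Of 16 tested targets of CAR and PXR, the xenobiotic receptors, 12 had a higher transgenic mean (11 or 12 under each scaling), against 48.7% of all tested probes, with a median of 0.25. The 4 lower ones were Cyp2c37 at -0.49, Ugt1a1 at -0.23, Aldh1a1 at -0.05 and Cyp3a25 at -0.04. The glutathione transferase genes Gsta1, Gsta2, Gstm1, Gstm2 and Gstm3 were all among the higher ones. Of these, Gstm2 differed by 0.93 (SE 0.258, unadjusted limma p 0.0021, adjusted p 0.932), and Gstm3 by 1.69 (SE 0.684, unadjusted limma p 0.0238). Both also had slopes above 0, 0.42 and 1.58. The Cyp4a and Gstm genes have close paralogs whose transcripts a probe may share.

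Of 4 LXR targets, 3 had a higher transgenic mean, with Abcg1, a cholesterol transporter gene, at 0.49 (SE 0.501) and Lpl, lipoprotein lipase, at 0.76 (SE 0.825), and slopes along the axis of 1.07 and 1.77. The other LXR targets tested, Fasn and Apoe, had slopes of -0.05 and -0.0090. Both FXR and SHP targets tested had a lower transgenic mean, the bile acid uptake gene Slc10a1 at -0.44 (SE 0.279) and Apoc3 at -0.05. Slc10a1 was dim, with means of 6.59 log2 units in transgenic and 7.03 in wildtype livers. Its probe was above noise on 15 arrays. This list does not separate genes that FXR or SHP raise from genes that they lower. The activity of FXR and SHP was not tested. Of 5 targets of the glucocorticoid receptor and FOXO, 3 were higher, with Zbtb16 at 0.24 and Sgk1 at 0.36. Of 4 retinoid genes, 1 was higher and 3 were lower (2 and 2 without quantile normalization), with Rdh16 at -0.43 (SE 0.217) and Aldh1a1 at -0.05. No endothelial target of Klf2 was tested, as the 1 named gene of that list, Klf4, was not above noise on any array.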

How the data were processed

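Total liver RNA of 16 animals was made into biotin-labelled cRNA and hybridised to Illumina bead arrays, per the labels' protocols. The authors deposited 1 linear intensity per probe and animal. BeadStudio 1.5.1.3 is named in the submitters' processing notes, and how the intensities were scaled is not given there. Since 30.0% to 33.8% of the values of an array are negative, a background had been taken off. A further table has 128 per-sample columns that carry only chip positions, and it was not used here.

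The deposited intensity values were passed through normexp (offset 16) array by array, turned into log2 values and then quantile normalized, using limma 3.58.1 under R 4.3.3. Quantile normalization hides a shift shared by most genes, and the offset compresses folds of dim probes. The log2 differences and folds were computed from the deposited intensities. A probe was detected above 1.645 times the noise SD, the root mean square of the array's negative values (10.4 to 19.7). Genotypes were compared over all 11317 tested probes with limma's lmFit and eBayes, two-sided, with Benjamini-Hochberg adjustment at 0.05. The precision is limited by the number of arrays.

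Of the 24048 probes, 8893 (37.0%) were named, nearly all by the gene number in the probe identifier matched to RefSeq (GRCm38.p6). Named in the text are Prox1, Nr1d2, Rora and Klf2, the 12 tested members of smallest p, the 2 of smallest p and the 2 of largest SD in each class, the 5 highest and 5 lowest slopes, and the 2 genes of smallest p in each list. Further list genes are named where a count or a sum called for them. Some genes and 1 list are not reported here. The members and lists were chosen with earlier results of these data known. Alternatives were the offset, a floor in place of normexp, the scaling, the probe filter, title number as a block, array weights, a robust trend, the axis as a covariate, all probes of a gene, and each animal left out.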

Additional observations from a re-analysis of the deposited data

How the results depend on the processing

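No member had an adjusted limma p under 0.05 in any of 28 alternatives. No member's slope moved by more than that gene's SD within genotypes. That limit is about as large as a slope per SD of the coordinate can be, so it does not show that the slopes were steady. The largest move of a slope under another background or scaling was 0.22 (floor), and the sign of the slope turned for 6 members without quantile normalization (Foxj3, Foxp1, Klf7, Nr2f6, Prox1, Rxra) and for Foxk2 with 75th percentile scaling. Prox1 kept its sign and an unadjusted limma p under 0.05 in all 28. These are refits of the same animals, and Prox1 was added by name with earlier results of these data known. They are thus no independent support for its difference. The probes with an unadjusted p under 0.05 numbered 332 in the fit reported, 1197 with array weights, 875 with no probe filter, 1509 with title number as a fixed block, 193 with it as a random block, and 221 to 799 with 1 animal left out (799 without transgenic 1, 791 without transgenic 2, 593 without wildtype 4, 582 without wildtype 5, 221 without wildtype 9). The members among them were 1 as reported, 4 with array weights, 2 with the axis as a covariate, 2 without a probe filter (of 48), 2 without quantile normalization, 3 with the fixed block, and 1 to 4 with 1 animal left out. The members with a higher transgenic mean were 7 of 28 as reported, 12 with the axis as a covariate, 15 of 48 without a probe filter and 4 of 22 on probes detected on all arrays. Of 750 recomputed differences of 27 members 41 changed sign, over 11 members, and those of 16 members never did. With the axis as a covariate the sign turned for Foxb1 (0.048), Klf12 (0.0089), Klf6 (-0.11), Nr1d2 (0.036), Onecut1 (0.028) and Rxrb (0.032). Without quantile normalization it turned for Foxb1 (0.015), and with the random block for Foxb1 (0.014). The fixed block turned Klf12 (0.019), Klf5 (0.29), Klf7 (0.0017), Nr2c1 (-0.013) and Nr4a2 (-0.040), array weights Nr2c1 (-0.022) and Nr4a2 (-0.0051), and a floor in place of normexp Nr4a2 (-0.030). With 1 animal left out the differences ran from -0.052 to 0.075 for Foxb1, -0.12 to 0.061 for Klf5, -0.080 to 0.011 for Klf7, -0.055 to 0.012 for Nr1h3, -0.034 to 0.091 for Nr2c1 and -0.052 to 0.061 for Nr4a2. The causes were not tested. Further counts were added after seeing the data. Slopes of 0.25 or more numbered 2 as reported and 1 with the offset of 50, without quantile normalization and with 75th percentile scaling. Slopes of -0.25 or less numbered 4 as reported, 7 with the floor, 2 without quantile normalization and 6 with 75th percentile scaling. The count of slopes below 0 was 18 of 28 without quantile normalization, 25 with 75th percentile scaling and 23 to 25 with 1 animal left out, against 24 as reported. Dim probes (Klf5, Klf8, Nr4a2, Onecut1, Rorb, Foxk2) are limited by their signal over background.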
